A study of Pimephales promelas with 80 samples.

Results

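A set of 22 genes, of 26150 in the count table, differed strongly in level from one unexposed fathead minnow larva to the next. The genes were chosen on the 10 control fish. Each had at least 10 counts in every control, a control mean of at least 4 and a control standard deviation (SD) of at least 0.8, both on the scale of log2(CPM + 1), where CPM is a gene's counts scaled to the library's sum of counts in genes, per 10 to the power of 6. A gene was also kept only if its mean at the highest dose of each chemical lay close to the control mean, within 1 log2 unit for 6PPD and within 0.4 for 6PPD-quinone (6PPD-Q). The control SD and mean and the differences at those 2 doses are therefore given as a description, and nothing is read from a test of them. The deposited tables hold FMg identifiers without gene names, so each gene is called by its identifier and no function is given.

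Each library came from 1 whole larva of Pimephales promelas, the fathead minnow, a freshwater species common in ecotoxicology. The labels give the larvae's age as 5 days, but count it from hatching in one field and from fertilization in another. The larvae spent 24 h without food, 1 fish in each well, in water with 0.3% DMSO, which the controls received as well. There were 30 fish at 6 nominal doses of 6PPD, a tire rubber antioxidant (0.00848, 0.0268, 0.0848, 0.268, 0.848 and 2.68 mg/L), 40 fish at 8 doses of its oxidation product 6PPD-Q (0.00277, 0.00878, 0.0277, 0.0878, 0.277, 0.878, 2.77 and 8.78 mg/L), with 5 fish at each dose, and 10 unexposed controls. Embryos came from more than 1 cross and the larvae were mixed before use, per the labels, which do not say which fish share parents. For each fish the labels give its treatment, a replicate number and a code made of a letter A or C, a letter from A to H and a number from 1 to 12. The first letter is called the plate letter here, and the rest the position. Both are names chosen here for parts of the code.

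Fish from a breeding stock are not genetically uniform, and mRNA levels differ between individuals with inherited variants at or near a gene, with sex, with small differences in developmental stage, with time of day and with the state of tissues such as gut, muscle and skin. Genes whose levels rise and fall together across individuals are said to co-vary. RNA of a whole larva sums over all tissues, so fewer cells of a type and less RNA per cell cannot be told apart in any value given here.

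Between 16.2 and 36.6 M counts per library fell in genes, with a median of 20.3 M, and 16.2 to 21.7 M in controls (M is the unit on which CPM is scaled). The 22 genes took 0.119% to 0.414% of a library's counts. No 2 libraries of a group agreed within sampling noise. The plate letter was A for 3 fish, control replicates 1 and 2 and replicate 1 at 2.68 mg/L 6PPD, and C for the other 77.

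Of the 26150 genes, 9374 met the count and level limits, and 59 of these (0.629%) also had a control SD of at least 0.8. Of the 59, 22 met both limits at the highest doses. Of the other 37, the 6PPD limit left out 9, the 6PPD-Q limit 15, and both limits 13. The 22 are thus not simply the most variable of the 59: FMg017156, just outside the 6PPD-Q limit, had a control SD of 1.73, above that of each of the 22. The median control SD was 0.924 for the 22 genes (0.809 to 1.55), against 0.183 for all 9374. The gene just under the SD limit had an SD of 0.797 and the one just over it 0.809. The difference at 2.68 mg/L 6PPD was 0.99 for the gene just inside that limit and 1.02 just outside. The difference at 8.78 mg/L 6PPD-Q was -0.40 just inside (-0.398 to 3 digits) and -0.41 just outside.

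The spread among controls was often carried by 1 fish. FMg008237 had the highest control SD of the 22. It stood at 80.1, 36.8, 34.3, 54.6, 24.2, 43.0, 32.9, 1.07, 38.9 and 107 CPM in control replicates 1 to 10. Replicate 8 lay far under the other 9 fish, and without it the SD fell to 0.659, against 1.55 with it. For 14 of the 22 genes the SD dropped under 0.8 without 1 particular control, and for 8 it stayed at 0.8 or more whichever control was left out. Leaving out the farthest fish tends to lower any SD, and some of the 14 lay just over the limit and dropped little. FMg025332 had an SD of 0.809, and 0.757 without replicate 8. FMg017870 had 0.843, and 0.765 without replicate 5. Replicates 6, 8 and 9 were each the fish farthest from the median for 4 genes. Replicates 6 and 8 were then always low, and replicate 9 was high for 3 of its 4. No control stood apart in all 22 genes.

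**Figure D1:**
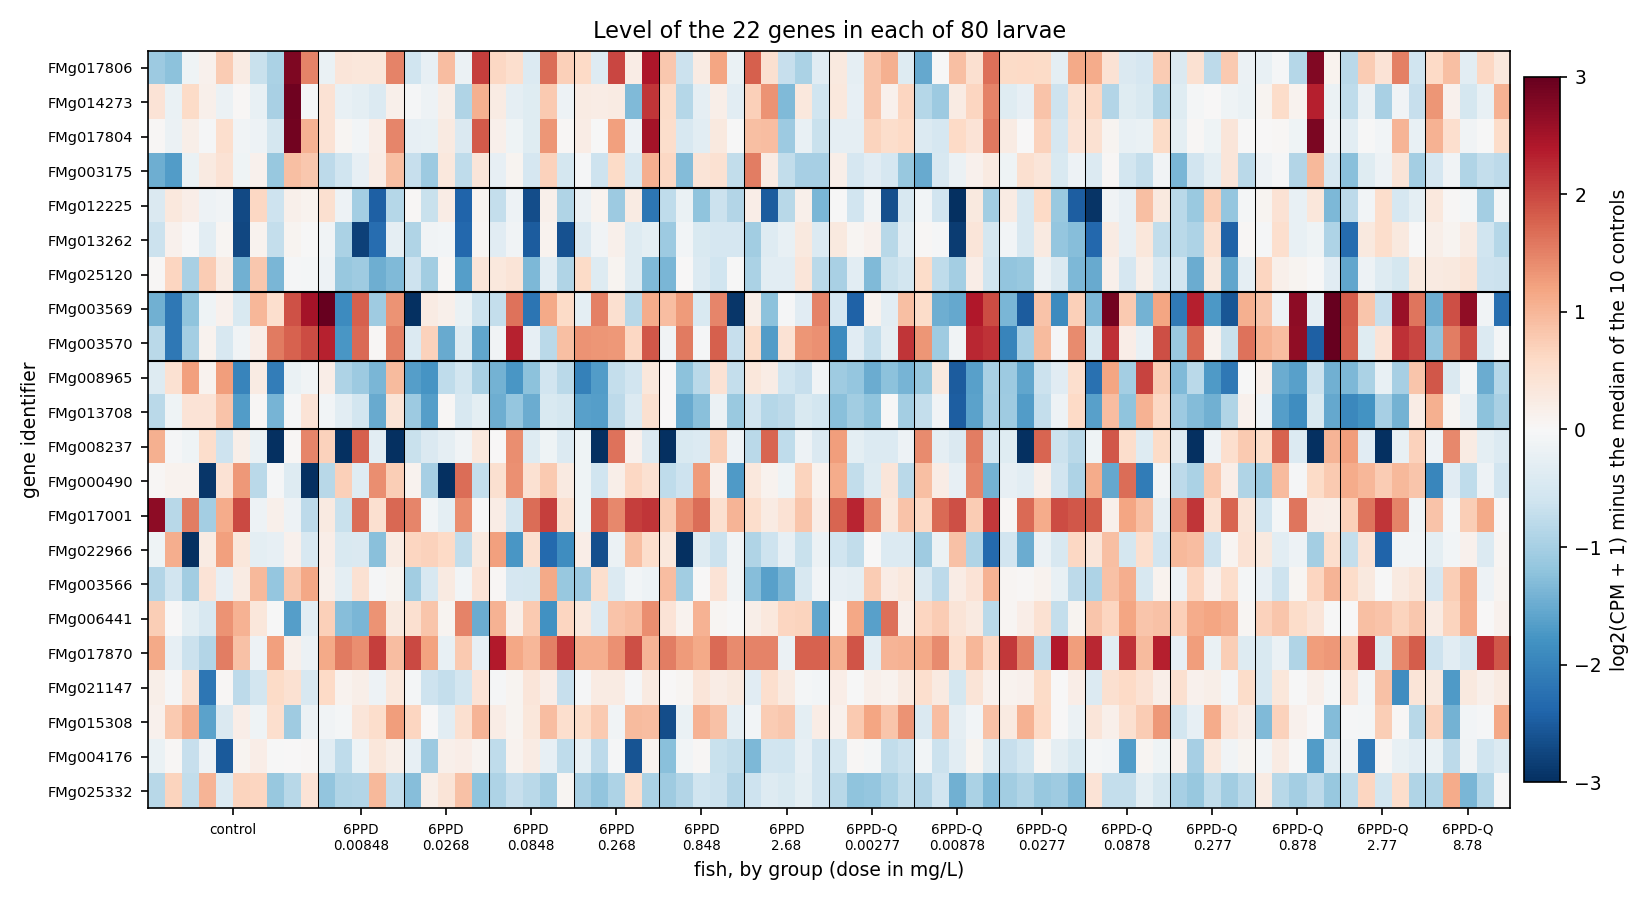
Level of each of the 22 genes (down the page) in each of 80 larvae (across, in order of dose within each chemical, with controls at dose 0), as log2(CPM + 1) minus the median of the 10 controls. Horizontal lines enclose 4 sets of genes that moved together in exposed larvae. Single dark cells are fish far from the rest, such as control replicate 8 for FMg008237.

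The first question was whether these genes also differed between exposed larvae at the same dose. The pooled SD within dose groups, over 70 exposed fish, had a median of 0.787 for the 22 genes (0.468 to 1.89), against 0.247 for all 9374. This SD is independent of the controls. It lay above the 95th percentile of all 9374 genes (0.50) for 21 of the 22 genes, and above the median for all 22. It was at least 0.8 for 10 of the 22, where 0.747% of all 9374 genes reached that value. FMg008237 was again the most variable of the 22 (1.89), followed by FMg003569 (1.69) and FMg003570 (1.34). The lowest was that of FMg021147 (0.468), which in controls owed its place to replicate 4 at 5.87 CPM against 16.9 to 45.3 CPM in the other 9. The SD was lower in exposed fish than in controls for 16 genes and higher for 6. A set picked for a high SD in one sample of fish is likely to have a lower one in another, so nothing is read from that count.

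**Figure D2:**
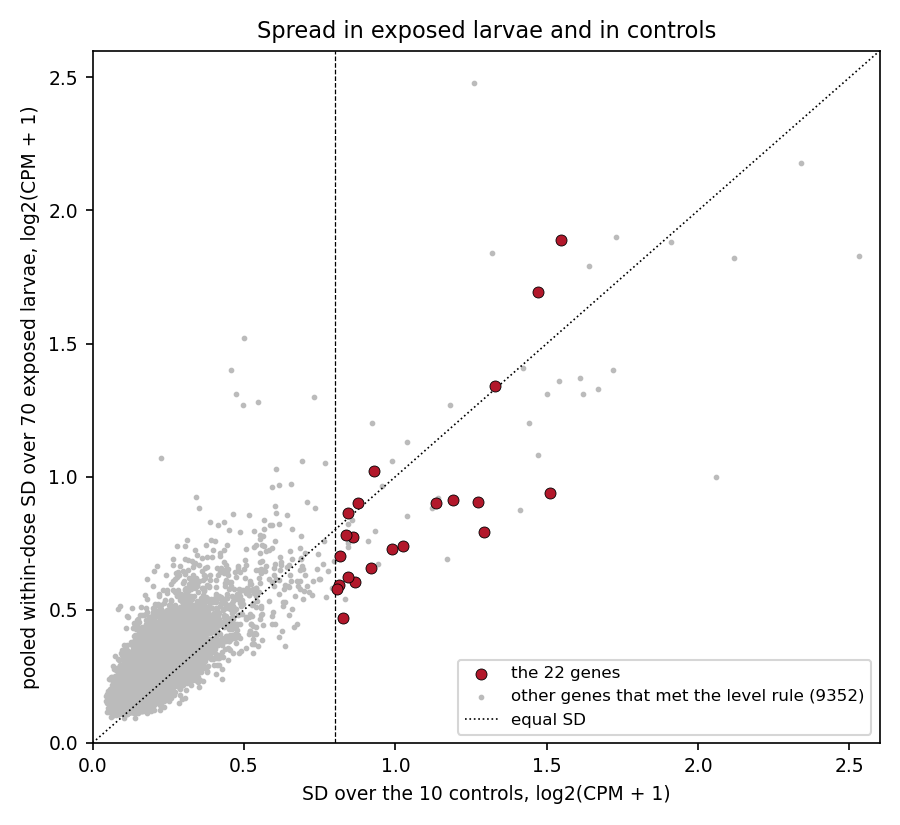
Pooled within-dose SD over 70 exposed larvae against the SD over the 10 controls, on the log2(CPM + 1) scale, for the 22 genes (red) and the other 9352 genes that met the level limits (grey). The dashed line marks the control SD of 0.8 and the dotted line equal SDs. On the axis of exposed larvae, 21 of the 22 red points lie above 0.50, the 95th percentile of all 9374 genes.

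FMg008237 showed the sharpest difference between fish. Exposed fish had between 0.154 and 140 CPM (median 31.8), and controls between 1.07 and 107 CPM (median 37.9). It was under 2 CPM in 8 of 70 exposed fish and in 1 of 10 controls, and no fish of either kind lay between 2 and 20 CPM. The low fish were 4 of 40 with 6PPD-Q, at 0.0277, 0.277, 0.878 and 2.77 mg/L, and 4 of 30 with 6PPD, at 0.00848 (2 fish), 0.268 and 0.848 mg/L. The low state was thus seen in fish with either chemical and in a control.

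The second question was which of the 22 genes moved together among controls. Pearson's r was computed for the 231 pairs, and genes were joined in a tree (average linkage, at 1 - r of 0.5). The tree gave groups of 7, 5, 4 and 2 genes and left 4 genes alone. The 7-gene group held FMg017806 (its central gene), FMg017804, FMg014273, FMg003175, FMg003566, FMg003569 and FMg003570, with a median r of 0.624 over its 21 pairs. The 5-gene group held FMg013262 (its central gene), FMg012225, FMg025120, FMg008965 and FMg013708, with a median r of 0.727 over 10 pairs. With 10 fish a high r can rest on 1 of them. Groups formed on these values have a high r by construction. The first axis of variation took 33.4% of the variance of the 22 genes in controls, against 23.4% for all 9374 genes. Such a share depends on the number of genes, and no other sets of 22 were drawn, so nothing is read from the difference.

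In exposed fish, with each dose group's mean removed, the groups held together only in part. The median r was 0.220 within the 7-gene group and 0.300 within the 5-gene group, over 70 fish that played no part in forming them. Over the 31 pairs of both groups it was 0.231, against 0.671 in controls. Of these 31 pairs, 27 had an r above 0 and 11 an r of at least 0.5. For all pairs of the 9374 genes with r of at least 0.5 in controls, the median r in exposed fish was 0.271. For such pairs of the 22 genes it was 0.216. Holding together to this extent was thus near the background and not particular to the 22 genes. Over all 231 pairs the median r was -0.00 in exposed fish and 0.02 in controls, so the 22 genes did not form 1 block in either. The first axis took 17.1% of their variance in exposed fish, against 21.9% for all 9374 genes, again for sets of unlike size. In 6PPD-Q fish alone the median r was 0.234 within the 7-gene group and 0.481 within the 5-gene group. In 6PPD fish alone it was 0.232 and 0.115 for the same groups. The difference between the chemicals was not tested.

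Recurrence of pairs was set beside that of all pairs of the 9374 genes. Of the 36 pairs of the 22 genes with r of at least 0.5 in controls, 10 (27.8%) also reached 0.5 in exposed fish, where 21.5% of such pairs did over all genes, so recurrence at that level was near the background. At r of at least 0.7, 6 of 15 pairs (40%) recurred, where 10.1% did over all genes. Pairs among the 22 share genes and are not independent of each other. Of 14 pairs with r of -0.5 or less in controls, 1 (7.14%) was again at -0.5 or less in exposed fish, where 10.9% of such pairs were over all genes, so this too was near the background. All 11 pairs at 0.5 or more in exposed fish, 10 of them also at 0.5 or more in controls, lay inside 4 sets of 4, 3, 2 and 2 genes. These sets were formed on the exposed fish after their values were seen. They were cut from the same r values, so a high r inside them is largely built in.

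**Figure D3:**
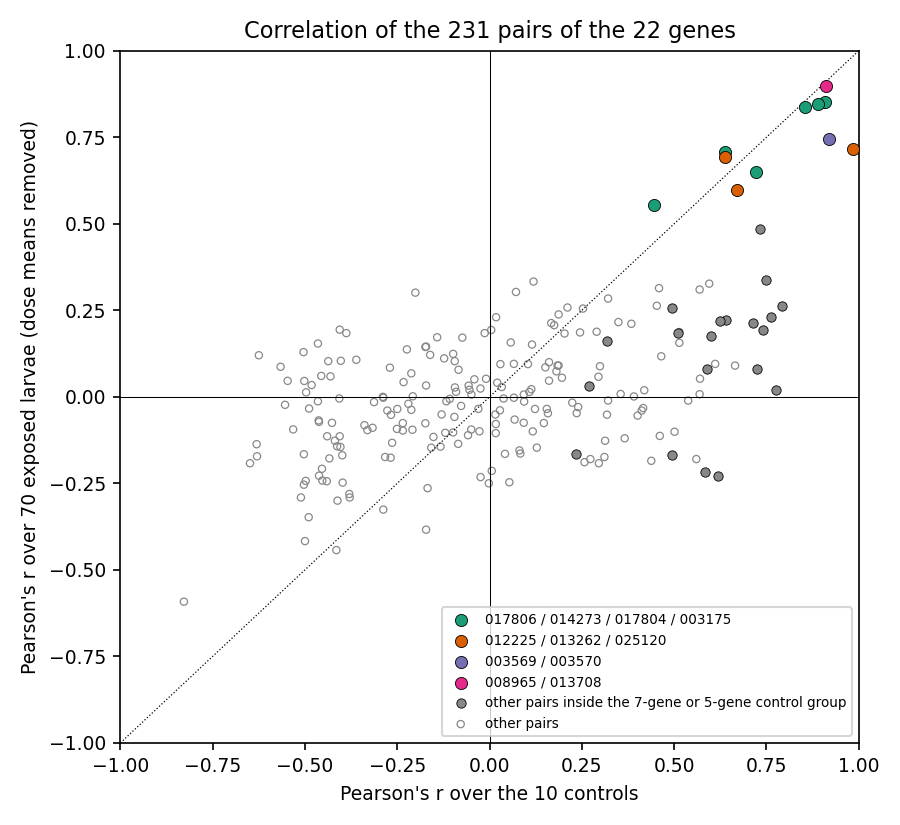
Pearson's r of each of the 231 pairs over 70 exposed larvae with dose means removed (vertical axis) and over the 10 controls (horizontal axis). The 11 coloured pairs belong to the 4 recurring sets (identifiers without their FMg prefix) and lie at 0.553 to 0.897 in exposed larvae. Filled grey points are the other pairs inside the 7-gene and 5-gene control groups, and open points are all other pairs.

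The largest recurring set was a quartet within the 7-gene group, FMg017806, FMg017804, FMg014273 and FMg003175. Its 6 pairs had a median r of 0.772 in exposed fish (0.553 to 0.852), 0.715 in 6PPD-Q fish and 0.821 in 6PPD fish, and 0.788 in controls. FMg017806 ranged from 25.3 to 519 CPM in exposed fish (median 99.2) and stood at 34.9, 31.7, 68.5, 82.7, 127, 89.3, 47.2, 38.8, 533 and 214 CPM in control replicates 1 to 10. FMg017804 had a median of 16.5 CPM and a highest value of 120 CPM in exposed fish, and had 127 CPM in control replicate 9 against 10.9 to 34.1 CPM in the other controls. Replicate 9 was thus far above the rest in both genes, and it was also highest for FMg014273, with 109 CPM against 6.49 to 20.6 CPM. Exposed fish with the same profile were found: replicate 4 at 0.878 mg/L 6PPD-Q had 519 CPM of FMg017806 and 120 CPM of FMg017804, and replicate 5 at 0.268 mg/L 6PPD had 410 and 94.9 CPM of these genes. Replicate 9 carried much of the correlation in controls: without it the median r of the 6 pairs there was 0.513 (0.154 to 0.883), and the 3 pairs with FMg014273 dropped to 0.373, 0.174 and 0.154. In controls, the r of FMg014273 with FMg017804 was 0.890 and dropped to 0.373 without replicate 9, whereas that of FMg017806 with FMg017804 was 0.835 without it and 0.908 with it. In exposed fish the 2 pairs had r of 0.846 and 0.852, and 0.803 and 0.821 without the 2 fish farthest from the median.

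In exposed fish the position code moved with part of this quartet. FMg017806 was higher at low position numbers. In exposed fish its median was 151 CPM over the 18 fish at numbers 1 to 4 (74.9 to 318), 101 CPM over the 27 at 5 to 8 (38.4 to 238), and 65.1 CPM over the 25 at 9 to 12 (25.3 to 519). In controls the 3 fish at 1 to 4 had 127, 214 and 533 CPM, and the 1 fish at 5 to 8 had 89.3 CPM. The 6 controls at 9 to 12 had 31.7 to 82.7 CPM. Those 6 include control replicates 1 and 2 (34.95 and 31.67 CPM), the controls with plate letter A, so plate letter and number are mixed in this comparison. Over exposed fish with dose means removed, r with the position number was -0.60 and Spearman's rho -0.65 (permutation p of 1e-05 for each, the smallest that 100000 permutations give, adjusted p = 0.0312 over 9374 genes), and r was -0.58 without the 2 fish at the position numbers farthest from the median. It was the only one of the 22 genes called for position number, where 15 of the 9374 genes (0.16%) were called, and its r ranked second in size among them. FMg003175 had r of -0.44 and rho of -0.46 (adjusted permutation p = 0.0897), and FMg017804 r of -0.30 and rho of -0.33 (adjusted permutation p = 0.243). FMg014273, the other gene of the quartet, had r of -0.04 and rho of -0.06 (adjusted permutation p = 0.929). In controls r with the position number was negative for every gene of the control group that holds this quartet. It was -0.87 for FMg017806, -0.75 for FMg017804, -0.70 for FMg003175 and -0.47 for FMg014273. For FMg003569, FMg003566 and FMg003570 it was -0.65, -0.55 and -0.52 in controls, but -0.01, -0.02 and 0.18 in exposed fish. How much of the correlation among controls went with position was not tested. Outside that group, FMg021147 had r of 0.45 and rho of 0.46 in exposed fish (adjusted permutation p = 0.075), of the opposite sign to FMg017806, and r of -0.15 in controls. With position number and letter removed, the quartet's median r in exposed fish was 0.804, against 0.772 with them. What the position stands for was not tested.

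The other recurring sets were smaller. FMg008965 and FMg013708, from the 5-gene group, had the highest r of all 231 pairs in exposed fish, 0.897 (rho 0.865, and 0.884 without the 2 farthest fish), against 0.910 in controls. FMg008965 ranged from 2.40 to 77.6 CPM in exposed fish (median 9.34) and from 3.55 to 45.0 CPM in controls (median 18.2). FMg013708 ranged from 4.28 to 60.3 CPM in exposed fish (median 14.8) and from 8.11 to 51.4 CPM in controls (median 28.1). Both were lowest in the same controls, replicates 6 and 8, and highest in replicate 5. These 2 genes belonged to a wider pattern: FMg008965 had r of at least 0.7 in exposed fish with 32 of the 9374 genes, 31 of which also had r of at least 0.5 with it in controls, and FMg013708 with 17. The other 20 of the 22 genes had at most 8 such partners and 11 had none. Over the 22 genes the median number of partners was 0.5, against 7 over all 9374 genes.

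FMg003569 and FMg003570, whose identifiers are consecutive, had the widest ratios of highest to lowest level in exposed fish after FMg008237. FMg003569 had 4.48 to 1290 CPM in exposed fish (median 83.7) and 26.8, 16.0, 31.5, 67.6, 81.3, 53.8, 148, 105, 281 and 426 CPM in control replicates 1 to 10. FMg003570 had 27.0 to 1262 CPM in exposed fish (median 213) and 86.3, 33.3, 73.4, 164, 107, 139, 175, 445, 518 and 591 CPM in the same controls. Control replicates 9 and 10 were high and replicate 2 low in both genes. This pair, the one with the highest r in controls within the 7-gene group (0.919), had r of 0.746 and rho of 0.783 in 70 exposed fish (permutation p of 1e-05 for each, the smallest possible, adjusted p = 1.5e-05 over 3 pairs fixed on the controls). The r was 0.799 in 6PPD-Q fish and 0.649 in 6PPD fish. It was 0.772 without the 2 fish farthest from the median in FMg003569, and 0.739 without the 2 farthest in FMg003570. Genes with consecutive identifiers can be near-identical copies. Reads aligned to several places were in no gene's counts. Whether these 2 genes are copies, or take each other's reads, the files do not settle.

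FMg012225 and FMg013262, the pair with the highest r in controls within the 5-gene group (0.984), were both very low in control replicate 6. FMg012225 had 33.3 CPM there, against 143 to 340 CPM in the other 9 controls, and FMg013262 had 6.04 CPM against 27.6 to 50.4 CPM. In exposed fish FMg012225 ranged from 20.9 to 416 CPM and FMg013262 from 5.54 to 67.2 CPM. FMg013262 lay under 10 CPM in 9 of 70 exposed fish, between 10 and 20 CPM in 1 and at 20 CPM or more in 60. Among those 60 fish the pair had r of 0.520 and rho of 0.563. Over all 70 fish r was 0.715 and rho 0.685 (permutation p of 1e-05 for each, the smallest possible, adjusted p = 1.5e-05 over the 3 pairs), and 0.646 without the 2 farthest, so the fish of the low state carried part of it. Together with FMg025120 the set had a median r of 0.693 in exposed fish, against 0.671 in controls. The values in controls rested in part on replicate 6. Without it r fell from 0.639 to 0.44 for FMg013262 with FMg025120 and from 0.671 to 0.523 for FMg012225 with FMg025120. For FMg012225 with FMg013262 it fell from 0.984 to 0.885.

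**Figure D4:**
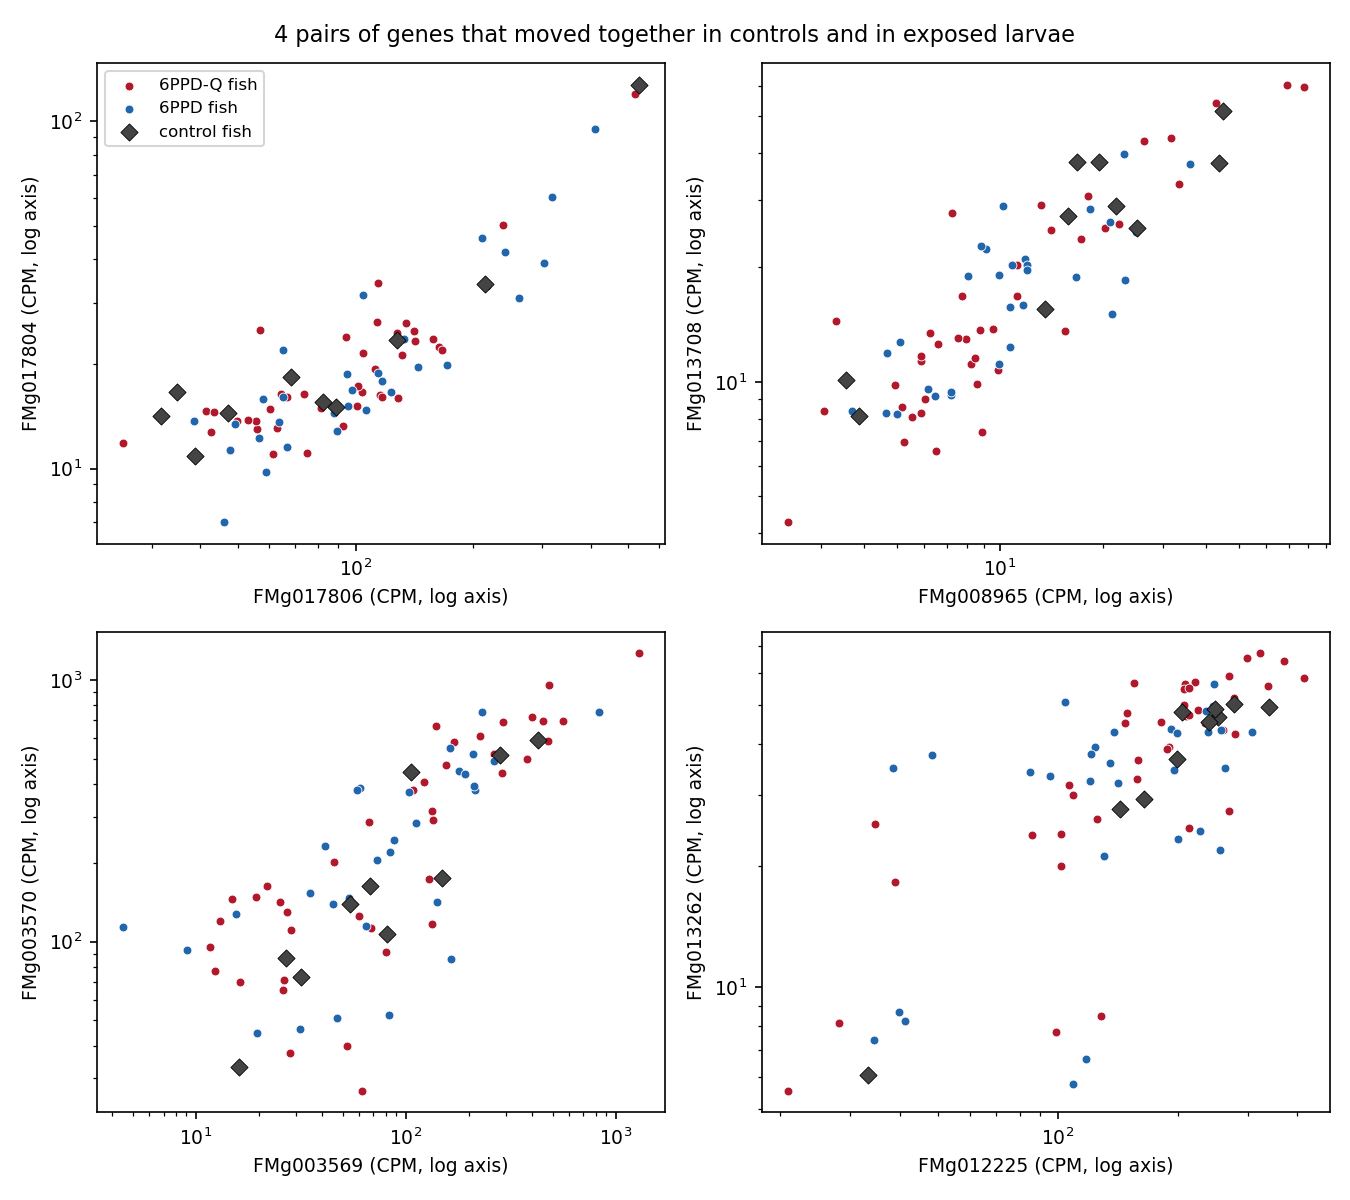
Level of 1 gene against another in each larva (CPM, both axes log), for a pair from each of the 4 recurring sets. Red and blue points are 6PPD-Q and 6PPD larvae and dark diamonds are the 10 controls. Control diamonds lie along the same bands as the exposed larvae in each panel.

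The most negative pair in controls, FMg021147 and FMg025332 (r of -0.83), also had opposite levels in exposed fish, with r of -0.59 and rho of -0.45 (permutation p = 0.00013 for r and 0.00117 for rho, adjusted p of the same size). FMg021147 had 7.52 to 56.2 CPM in exposed fish and 5.87 to 45.3 CPM in controls. FMg025332 had 43.6 to 263 CPM in exposed fish and 54.0 to 243 CPM in controls. In control replicate 4, FMg021147 was at its lowest and FMg025332 at its highest. Replicate 2 at 8.78 mg/L 6PPD-Q had the same profile, with 8.50 CPM of FMg021147 and 263 CPM of FMg025332. Without the 2 farthest fish r was -0.51.

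Genes with neighbouring identifier numbers were then examined, since 5 of the 22 had another of the 22 within 4 numbers. Whether the numbers follow the genome is not stated in the sources used here. A neighbour was taken only if its control mean was at least 1 on the log2(CPM + 1) scale. Of 128 pairs of 1 of the 22 genes with a gene up to 4 numbers away, 13 (10.2%) had r of at least 0.5 in exposed fish and 7 (5.47%) r of -0.5 or less, where 6.25% and 1.84% of all neighbouring pairs did. The opposite pairs were the less usual kind. The 13 pairs came from 9 of the 22 genes and the 7 from 4, so the pairs are not independent of each other. FMg004176 was in the 7 with FMg004177, FMg004178 and FMg004179, and FMg013708 with FMg013709 (r of -0.567) and FMg013712 (r of -0.601). In controls FMg013708 had r of -0.515 with FMg013709 but 0.0144 with FMg013712, so the latter pair was opposite in exposed fish only. For FMg008237, FMg013262 and FMg004176 the fish fell into separate clusters with such a neighbour, so these pairs are given as numbers of fish, with limits set after the values were seen and without a pooled r.

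FMg008238, the next number after FMg008237, had 12.6 to 106 CPM in exposed fish and 15.4 to 78.6 CPM in controls. Of the 8 exposed fish in which FMg008237 was under 2 CPM, 7 held the 7 highest levels of FMg008238 among the 70. The low fish of FMg008237 among controls, replicate 8, likewise had the highest FMg008238 level of the 10 controls, 78.6 CPM. In all, 8 of the 9 fish under 2 CPM had at least 70 CPM of FMg008238, against 1 of the other 71.

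FMg013261, the number before FMg013262, was either at 2.48 CPM or less or at 12.9 CPM or more in every fish. All 10 fish with less than 10 CPM of FMg013262 (9 exposed and 1 control) were in the higher class. A further 28 fish combined at least 10 CPM of FMg013262 with the higher class, and 42 with the lower. Control replicates 1, 6 and 8 had 15.9, 30.0 and 18.8 CPM of FMg013261 and 29.2, 6.04 and 27.6 CPM of FMg013262. The other 7 controls had 1.17 to 2.44 CPM of FMg013261 and 36.8 to 50.4 CPM of FMg013262. Replicate 6 was thus the extreme of both genes among controls.

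FMg004176 was low in control replicate 5, at 4.22 CPM against 17.6 to 33.5 CPM in the other 9. FMg004178, the second number after it, was either at 1.79 CPM or less or at 4.73 CPM or more. All 24 fish of the higher class (22 exposed and 2 controls) had less than 20 CPM of FMg004176, and 53 of the 56 fish of the lower class had 20 CPM or more. The genes on both sides moved with them. In control replicate 5, FMg004174 and FMg004175 were at their lowest among controls, 0.506 and 1.91 CPM, and FMg004177, FMg004178 and FMg004179 at their highest, 13.8, 14.8 and 4.39 CPM. Control replicate 3 came next in those last 3 genes, with 6.86, 6.81 and 1.93 CPM.

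**Figure D5:**
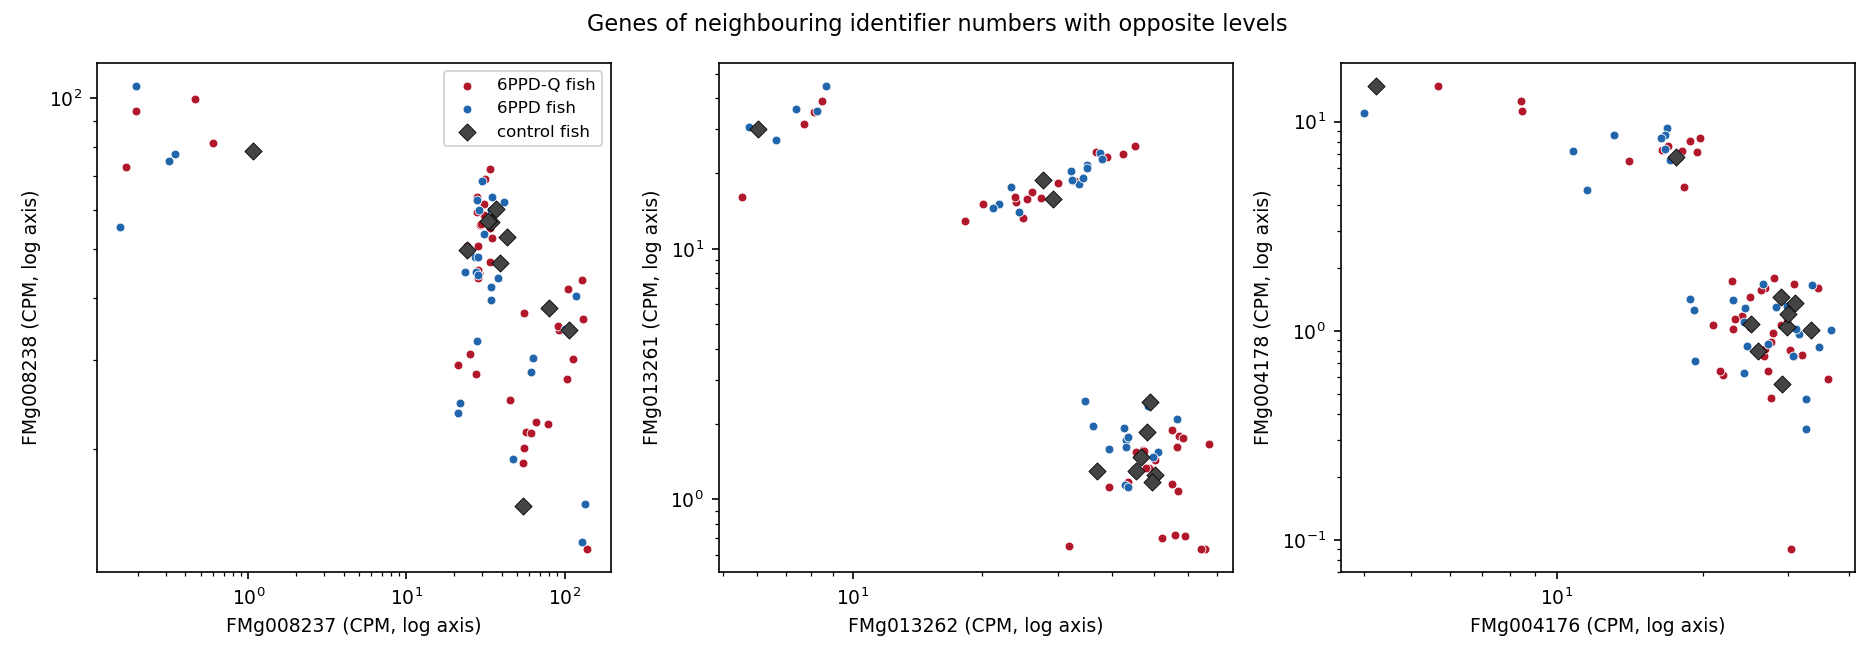
Level of a gene of the set (horizontal axis) and of a gene with a neighbouring identifier number (vertical axis) in each larva (CPM, both axes log). Red and blue points are 6PPD-Q and 6PPD larvae and dark diamonds are the 10 controls. The larvae fall into separate clusters, each of the 3 panels holding exposed larvae and controls in both its high and its low class.

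Few of the 22 genes were called for other measures of a library in exposed fish. In exposed fish the median size of r with the position number was 0.128 for the 22 genes and 0.131 for all 9374, and with the share of reads in genes 0.192 and 0.297 for the same sets. FMg015308, FMg021147 and FMg006441 were called for the share of reads in genes, 3 of 22, where 48.1% of all 9374 genes were. Their r with it were -0.453, -0.324 and -0.346 (adjusted permutation p = 0.00076, 0.0296 and 0.0205). In controls they were -0.346, 0.0643 and -0.588. The r largest in size with that share in controls was -0.721 (FMg017001, 0.187 in exposed fish). With total counts, FMg021147 and FMg025332, the most negative pair above, had r of 0.651 and -0.528 in controls. In exposed fish these were -0.183 and 0.121. The r in controls were not tested. None of the 22 was called for position letter, total counts or genes detected, where 0.0747%, 0% and 9.4% of all genes were.

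The last question was whether exposure shifted the mean level of the 22 genes. All 22 passed the low-count filter of the test, with 21599 genes tested. With edgeR's quasi-likelihood test and Benjamini-Hochberg adjustment over all genes tested, none of the 22 was called at any of the 12 doses that the rule did not use. The controls that each dose was set against are, however, the 10 fish on which the rule chose the genes. Of all genes tested, 0.00926%, 0%, 0%, 0% and 0.88% were called at the 5 lower 6PPD doses from low to high. At the 7 lower 6PPD-Q doses from low to high, 0.00463%, 0.037%, 0%, 0.102%, 0.00463%, 0.00463% and 0.0139% were. At unadjusted edgeR p under 0.05 there were 1 to 4 of the 22 per dose, against 358 to 2232 of the 21599 genes tested. DESeq2 also called none at these 12 doses, and gave 7 of the 22 no adjusted p at 2.77 mg/L 6PPD-Q. The median size of change per dose was 0.25 to 0.44 log2 units for the 22 genes and 0.10 to 0.16 for all. The rule fixed a small change at 2.68 mg/L 6PPD and 8.78 mg/L 6PPD-Q, so nothing is read from these doses. At 8.78 mg/L 6PPD-Q none of the 22 was called, where 0.301% of all genes were. At 2.68 mg/L 6PPD the 22 included 1 called gene, where 22.1% of all were. That gene, FMg003566, had 11.8, 9.09, 11.02, 21.2 and 28.5 CPM in fish at that dose and 12.9 to 68.2 CPM in controls (median 30.5), and the groups overlapped. Its mean log2 level there was -0.93 relative to controls, just inside the limit, and the call was lost without control replicate 7, 9 or 10, without replicate 1, 2 or 3 at that dose, and without the plate A fish.

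Over the pooled lower doses, which the rule did not use, none of the 22 was called either. The mean of the 7 lower 6PPD-Q doses was set against controls with 0.0139% of all genes called. At unadjusted edgeR p under 0.05 there were 6 of the 22 and 1287 of the 21599 genes tested. For the mean of the 5 lower 6PPD doses 0.0185% were called, with 5 of the 22 and 947 of the 21599 at that unadjusted limit. The share at that limit was larger among the 22 than among all genes in both contrasts. The 2 contrasts share the 10 controls, on whose SD and mean the rule chose the 22 genes, so their control side is not free of the rule. The lowest unadjusted p was that of FMg025332 in 6PPD-Q fish, with a log2 change of -0.86 (SE 0.21, unadjusted edgeR p of 0.000102, adjusted p = 0.265). FMg025332 had 43.6 to 263 CPM in 6PPD-Q fish (median 65.5), 49.1 to 235 CPM in 6PPD fish (median 70.2) and 54.0 to 243 CPM in controls (median 125). FMg017870 had medians of 115, 147 and 56.03 CPM in 6PPD-Q fish, 6PPD fish and controls. Its log2 change was 0.63 for the lower 6PPD-Q doses (SE 0.30, edgeR adjusted p = 0.827) and 0.91 for the lower 6PPD doses (SE 0.32, edgeR adjusted p = 0.799). Exposed and control ranges overlapped for both genes. Among the 12 lower dose groups themselves, without controls, none of the 22 was called, where 0.713% of all genes were. At unadjusted edgeR p under 0.05 there were 1 of the 22 and 1299 of the 21599 genes tested. In counts simulated on these libraries, the test of the pooled lower 6PPD doses found 86% of genes changed 2-fold, but over genes of every spread. The 22 were chosen for a high spread, and the changes of 0.91 and -0.86 above, close to 2-fold, were not called. Changes of that size in these genes could thus have been missed. Which larger changes the test would find in them was not simulated. The -0.86 is from the lower 6PPD-Q doses, at which no changes were simulated.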

How the data were processed

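Libraries of 80 single whole larvae were prepared with SENSE mRNA-Seq reagents of Lexogen, per the labels. Among the tools in the submitters' processing notes are HTSeq 0.13.5, STAR 2.7.10a, Trim Galore 0.6.6 and edgeR, with their roles not stated there. Genome build, annotation and strand setting: not given in the sources used here. Per the file headers and values, the authors deposited integer counts of 26150 genes plus 5 lines that name no gene. Those lines (7.73% to 13.5% of reads outside genes, 4.48% to 6.02% ambiguous and 5.68% to 9.76% aligned to several places) stayed out of library sizes and tests, and genes in near-identical copies lose such reads. The authors also deposited log2 values of normalized CPM, which served only as an alternative source for the member rule. The precision of each library follows from its 16.2 to 36.6 M counts in genes.

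The members, the lists and the tests were chosen with earlier results of these data known. Levels are log2(CPM + 1), a scale that understates differences at low levels, with CPM by the sum of counts in genes. Dose means were removed before SDs (56 degrees of freedom) and correlations in exposed fish. For a pair of genes, the 2 farthest fish were those farthest from the median in the gene named first, unless stated otherwise. Permutation tests are two-sided and shuffled fish within dose groups 100000 times. Contrasts used edgeR 4.0.16 in R 4.3.3 (quasi-likelihood, TMM factors, filterByExpr, all 80 libraries in 1 fit, Benjamini-Hochberg adjustment, called under 0.05), with DESeq2 1.42.0 as an alternative. The test was tried on simulated counts of 21599 genes: 86% of 2-fold and 99% of 4-fold changes were found for the pooled lower 6PPD doses, with 16 false calls. Each library is a separate fish, per the labels. Genes were named if they had the highest SD in controls or in exposed fish or were central to 1 of the 2 largest control groups (FMg008237, FMg017806 and FMg013262). The other genes were named after their values were seen, as those the comparisons turn on. None of the 26150 identifiers matched the RefSeq gene table. Same-numbered fish of different groups did not deviate together (median r of -0.00187 over 455 pairs, 84 of them over 0.1), so replicate numbers were not used as pairs.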

Additional observations from a re-analysis of the deposited data

Results flagged for a closer look

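Among the 10 controls, a fish lay far from the other 9 for 8 of the 22 genes, by Dixon's ratio of its gap to the whole range on the log2 scale (critical value 0.466). Chance gives about 1 in 20, but these genes were chosen for a high control SD, which such a fish raises. In 6 of the 8 the fish was low. Replicate 6 was low for FMg013262 (ratio 0.706, 6.04 CPM against 27.6 to 50.4) and FMg012225 (0.625, 33.3 CPM against 143 to 340). Replicate 5 was low for FMg004176 (0.674, 4.22 CPM against 17.6 to 33.5), replicate 8 for FMg008237 (0.632, 1.07 CPM against 24.2 to 107), replicate 3 for FMg022966 (0.604, 24.4 CPM against 154 to 510) and replicate 4 for FMg021147 (0.503, 5.87 CPM against 16.9 to 45.3). Replicate 9 was high for FMg014273 (0.606, 109 CPM against 6.49 to 20.6) and FMg017804 (0.545, 127 CPM against 10.9 to 34.1).

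Exposed fish reached such levels too. For 5 of the 8 genes the lowest exposed fish was at or under that control: 5.54 CPM for FMg013262, 20.9 CPM for FMg012225, 3.99 CPM for FMg004176, 0.154 CPM for FMg008237 and 24.2 CPM for FMg022966. For the other 3 the extreme exposed fish fell short of it, with 7.52 CPM for FMg021147, 72.6 CPM for FMg014273 and 120 CPM for FMg017804. Their causes were not tested.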

How the results depend on the processing

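The number of members was 17 to 27 when 1 control was left out (17 without replicate 8). It was 29 with 6PPD-Q limited from above only and 21 with a pseudocount of 0.5 CPM. With TMM scaling it was 21, of which 20 were in the set used here. From the authors' deposited log2 values it was 23, of which 18 were in that set. For the other alternatives only the number is given, not which genes stayed. The count of 10 genes with an exposed SD of at least 0.8 became 10 or 11 under 11 alternatives. The median r within the control groups, 0.231, became 0.195 to 0.334 under 24, and a tree height of 0.3 gave no group of at least 5 genes. The 3 fixed pairs kept their sign and their calls under 10 alternatives each (highest adjusted permutation p = 0.00664). Removing position and leaving out the plate A fish were chosen after seeing the data, as was reading the quartet without control replicate 9.

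The single call at 2.68 mg/L 6PPD (FMg003566) gave 0 calls without the plate A fish and 0 with replicate number as a block, and 0 to 1 when 1 fish was left out: 0 without control replicate 7, 9 or 10 or replicate 1, 2 or 3 at that dose. No alternative gave a call in the 16 other contrasts (415 values summed over these contrasts, replicate block included). Most of the 415 are refits without 1 fish, and the same refit counts once for each contrast it enters. These contrasts include the highest 6PPD-Q dose, where the rule itself kept only genes with a small change. Nothing is read from the lack of calls at that dose. Fits that leave out 1 fish kept the dispersion trend of all fish. Replicate number did not pair the fish: 10 of 70 exposed fish correlated best with their own number.

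With 10 controls, a control SD or r often rests on 1 fish. Genes of low level are bounded by counting error, since FMg008237 had 3 counts in its lowest fish.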
